A study of Mus musculus with 8 samples.

Results

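The regions described are 11774 CpG-rich transcription start sites (TSSs) of protein-coding genes, out of 21410 on mouse chromosomes 1 to 19 (mm9, GENCODE vM1). A TSS was a member when 500 bp somewhere between -1 kb and +0.5 kb reached 55% G+C together with an observed to expected CpG ratio (O/E) of 0.6. Each gene was represented by the TSS shared by most of its protein-coding transcripts, and the region from -500 to +1000 bp was read in the direction of transcription. The other autosomal TSSs were 3605 intermediate ones and 6031 CpG-poor ones, the latter without any interval of O/E 0.4 or above. The rule used sequence and annotation only, so the nucleosome measurements below are independent of it, whereas the base composition is not.

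Nucleosomes came from subcutaneous isografts of Lewis lung carcinoma cells (LLC) in young female C57BL/6J mice. LLC-NR cells respond to VEGF-Trap, a decoy receptor that binds vascular endothelial growth factor, whereas LLC-R is a subline selected for resistance by repeated VEGF-Trap treatment of tumor-bearing mice. The methods name no treatment of the profiled isografts, and LLC-NR and LLC-R otherwise share host strain and preparation. Micrococcal nuclease (MNase) released nucleosomes from cross-linked chromatin, antibodies against H3K4me3, H3K9ac, H3K27me3 or H3K36me3 precipitated them, and there was 1 library per line and mark. The 8 libraries therefore give no replicate error and allow no test between lines, and a difference between lines cannot be told apart from a difference between libraries. An isograft also holds host vessels, stroma and leukocytes, and a list of peak positions cannot separate their nucleosomes from those of the tumor cells.

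A nucleosome is a stretch of DNA wrapped around a histone octamer, and the middle of that stretch is called the dyad. At promoters in CpG islands the stretch just upstream of the TSS is typically kept open by transcription factors, remodelers and polymerase, and is called the nucleosome-depleted region. The nucleosome at its downstream border, +1, is positioned most strongly, and those after it (+2, +3 and so on) are lined up against it with decreasing precision. H3K4me3 and H3K9ac mark nucleosomes at active promoters, H3K36me3 is laid down in transcribed gene bodies behind elongating polymerase, and H3K27me3 is the product of Polycomb repressive complex 2, which in many cell types covers CpG islands of silent developmental genes.

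The deposited peaks give a position and no height. All had the width of a nucleosome and none overlapped another of its library, so each stands for 1 called nucleosome. A peak of few reads counts like one of many, so a single midpoint does not show that the nucleosome carried the mark. Libraries held 5660458 to 9101721 peaks, and these numbers are the only depth that the peak lists show. The share of dinucleotides made of A and T, where MNase cuts preferentially, peaked 73 bp before and 74 bp after the midpoints on chromosome 19, at 38.4% to 44.8% against 26.8% to 28.5% within 50 bp of them. Midpoints were therefore read as dyads. A level below is the density of midpoints divided by that of the same library in 1317114 autosomal windows (1.5 kb each, no TSS within 5 kb), so that 1 is the background of the library. Over all autosomes the density was close to that of these windows, for example 2.19 against 2.16 midpoints per kb in LLC-NR H3K4me3. The share of peaks that come from background reads was not tested. Intervals are exact 95% Poisson intervals for levels and exact binomial (Clopper-Pearson) intervals for shares and for ratios of levels, and cover counting error only.

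The sequence from -150 to -1 bp, called the depleted window here, was far richer in CpG at members than at CpG-poor TSSs. G+C made up 64.7% of it against 45.2%, and CpG began at 8.62% of positions against 0.813%. The 7 windows printed here run from TSSs whose window was free of midpoints in all 8 libraries (Rps6, Nkx2-5 and Fibp), through Vegfa with a midpoint in 1 library and Smad3 with midpoints in 5, to Kdr and Pax6 with midpoints in 7. Each is given 5′ to 3′ on the strand of the gene (NCBIM37, the mm9 assembly), ends 1 base before the TSS, overlaps no annotated exon and has each CpG in capitals.
Rps6 (chr4:86503317-86503466, minus strand): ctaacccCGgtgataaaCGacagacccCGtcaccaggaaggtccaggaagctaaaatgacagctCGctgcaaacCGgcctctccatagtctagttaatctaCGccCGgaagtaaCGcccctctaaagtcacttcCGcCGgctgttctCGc
Nkx2-5 (chr17:26978511-26978660, minus strand): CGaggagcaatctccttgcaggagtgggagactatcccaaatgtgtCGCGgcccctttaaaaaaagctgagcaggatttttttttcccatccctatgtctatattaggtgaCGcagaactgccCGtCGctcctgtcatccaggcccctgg
Fibp (chr19:5460487-5460636, plus strand): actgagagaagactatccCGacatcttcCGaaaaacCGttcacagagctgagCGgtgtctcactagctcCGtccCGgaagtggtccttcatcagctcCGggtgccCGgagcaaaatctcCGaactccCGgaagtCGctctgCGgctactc
Vegfa (chr17:46169327-46169476, minus strand): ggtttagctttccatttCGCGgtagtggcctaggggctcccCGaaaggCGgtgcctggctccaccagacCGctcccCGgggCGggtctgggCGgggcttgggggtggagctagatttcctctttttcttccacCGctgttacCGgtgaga
Smad3 (chr9:63605802-63605951, minus strand): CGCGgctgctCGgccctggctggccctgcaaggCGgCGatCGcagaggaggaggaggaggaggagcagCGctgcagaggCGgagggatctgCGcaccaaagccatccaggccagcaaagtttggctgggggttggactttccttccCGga
Kdr (chr5:76374484-76374633, minus strand): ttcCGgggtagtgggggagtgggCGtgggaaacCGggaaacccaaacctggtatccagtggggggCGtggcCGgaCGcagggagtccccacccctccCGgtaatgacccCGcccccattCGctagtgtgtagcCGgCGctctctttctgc
Pax6 (chr2:105508903-105509052, plus strand): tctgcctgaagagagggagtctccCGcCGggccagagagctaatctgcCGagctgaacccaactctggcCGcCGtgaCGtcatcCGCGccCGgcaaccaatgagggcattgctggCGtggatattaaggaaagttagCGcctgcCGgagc

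The numbers of CpGs of empty and occupied windows overlapped in these examples. The window of Rps6, a ribosomal protein gene, held 11 CpGs, that of Nkx2-5, a cardiac homeobox gene, held 6 and that of Fibp, an FGF1-binding protein gene, held 12. Kdr, the main VEGF receptor of endothelium, held 11 and Pax6, a regulator of eye and brain development, held 12. Those of Rps6 and Fibp share the core of the ETS factor site, CCGGAAG (on either strand), which was present in this window at 1284 members (10.9%), at 6.87% of all 21410 TSSs and at 1.04% of CpG-poor ones. Those of Vegfa, which encodes the VEGF-A ligand, and Kdr share the GC box GGGCGG on either strand, which 58.1% of members, 36.1% of all TSSs and 5.75% of CpG-poor TSSs held. Letters that match a motif are a description and show no binding.

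The depth of the depleted window depended on the mark. The level of H3K36me3 was the lowest, 0.404 (interval 0.386 to 0.423; 1775 midpoints) in LLC-NR and 0.580 (0.561 to 0.59997; 3480 midpoints) in LLC-R. H3K9ac stood at 0.755 (0.733 to 0.778; 4407 midpoints) in LLC-NR and 0.672 (0.6498 to 0.694; 3609 midpoints) in LLC-R. H3K27me3 was only slightly under background, at 0.903 (0.877 to 0.930; 4533 midpoints) in LLC-NR and 0.882 (0.859 to 0.905; 5528 midpoints) in LLC-R. H3K4me3 was above background even there, at 1.68 (1.64 to 1.73; 6431 midpoints) in LLC-NR and 1.48 (1.44 to 1.52; 5659 midpoints) in LLC-R. On this scale the order of the 4 marks was the same in both lines, and their intervals did not overlap within a line. Scaled on the region from -500 to +1000 bp, the order in LLC-R changed, with H3K27me3 (0.853) above H3K4me3 (0.828) and H3K36me3 (0.596) above H3K9ac (0.580). For H3K4me3 the window was thus depleted only relative to its flanks, whose maxima reached 2.19 upstream and 3.30 downstream in LLC-NR.

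CpG-poor TSSs lacked most of this structure. Their level in the same window was 0.978 and 0.957 for H3K4me3 (LLC-NR, then LLC-R), 0.967 and 0.980 for H3K9ac, 1.003 and 0.975 for H3K27me3, and 0.904 and 0.922 for H3K36me3. The ratio of members to CpG-poor TSSs was highest for H3K4me3, 1.72 (1.64 to 1.81) in LLC-NR and 1.55 (1.47 to 1.63) in LLC-R. It was lowest for H3K36me3, 0.447 (0.419 to 0.477) and 0.629 (0.599 to 0.661). For H3K9ac it was 0.781 (0.745 to 0.819) and 0.685 (0.652 to 0.721), and for H3K27me3 0.89998 (0.857 to 0.945) and 0.904 (0.865 to 0.945). All 8 intervals exclude 1. Base composition differs between these classes by construction, and its part in the number of mapped reads, and hence in the peaks called, was not tested.

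**Figure D1:**
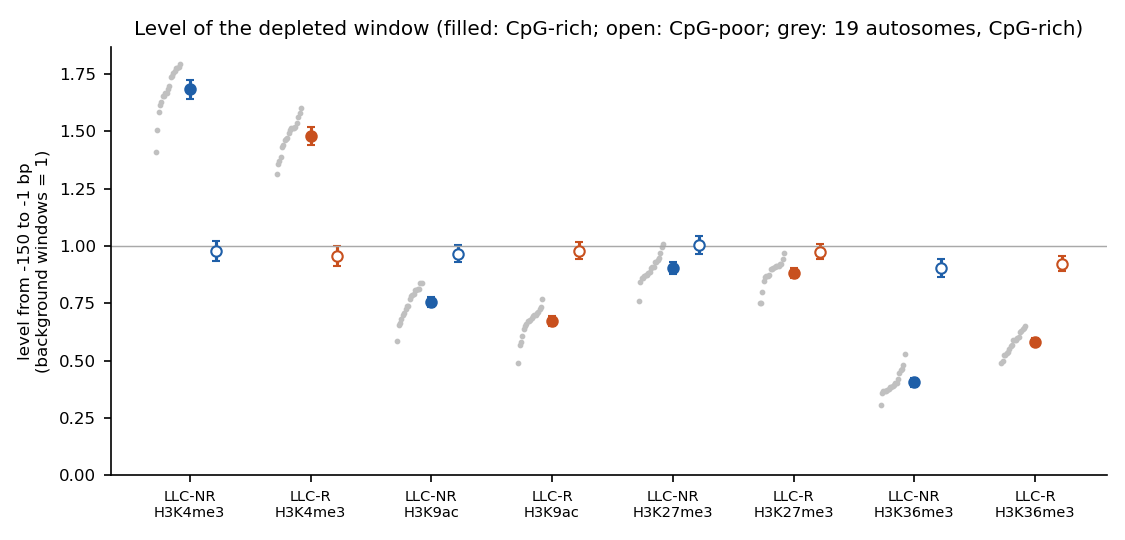
Level of midpoints from -150 to -1 bp in each library (y axis, background windows = 1) at CpG-rich TSSs (filled) and CpG-poor TSSs (open), both with 95% Poisson intervals, with the 19 autosomes as grey dots for CpG-rich TSSs. H3K4me3 stands at 1.68 and 1.48, above background, and H3K36me3 at 0.404 and 0.580, below it, while CpG-poor TSSs stay between 0.904 and 1.003.

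The lowest point of the profile was not in the middle of the depleted window. It lay at the TSS or just inside the gene, from +15 to +35 bp, in 6 libraries, at -25 bp in LLC-R H3K9ac and at -45 bp in LLC-R H3K36me3 (profile in 10-bp bins, smoothed with a Gaussian of SD 20 bp). Its level ranged from 0.344 in LLC-NR H3K36me3 to 1.28 in LLC-NR H3K4me3. At CpG-poor TSSs the lowest point was at -45 to -25 bp in all 8 libraries.

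LLC-NR H3K4me3 had an extra rise within the window. Its profile had a local maximum of 1.80 at -35 bp, between minima of 1.56 at -105 bp and 1.28 at +35 bp. In LLC-R H3K4me3 the highest bin between -100 and -15 bp was the one at -95 bp, at the border of the search, so that no such maximum was scored. H3K27me3 had faint ones, 0.018 above the higher adjacent minimum at -55 bp in LLC-NR and 0.039 above it at -75 bp in LLC-R. The highest bin was at that border in the H3K9ac and H3K36me3 libraries too. From -90 to -11 bp the H3K4me3 library of LLC-NR held 3578 midpoints and that of LLC-R held 3001.

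The first nucleosome downstream was at the same place in every library. The +1 maximum fell in the bin centred on +135 bp in all 8, and with bins of 1 bp it ranged from +131 bp in LLC-NR H3K4me3, H3K9ac and H3K27me3 to +135 bp in LLC-NR H3K36me3. On single autosomes it lay between +105 and +175 bp, with medians of +125 bp in LLC-NR H3K4me3 and +135 bp in the other 7 libraries. A nucleosome centred at +135 bp covers +62 to +208 bp.

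The height of +1 followed the marks. For H3K4me3 it was 3.30 (LLC-NR) and 2.96 (LLC-R), and for H3K9ac 1.77 and 1.71. H3K27me3 reached 1.74 in LLC-NR and 1.35 in LLC-R. H3K36me3 stayed under its background in LLC-NR, at 0.875, and was at 1.23 in LLC-R. The trough between +1 and +2 lay at +225 or +235 bp, and +1 stood 1.47 times (LLC-R H3K27me3) to 2.54 times (LLC-NR H3K4me3) above it. Mean base composition did not change across this border. Dinucleotides of A and T made up 9.81% of the stretch under +1 and 9.91% of the linker from +209 to +235 bp, and G+C was 67.4% of both. Around the single midpoints from +86 to +185 bp, however, these dinucleotides peaked at both nucleosome edges in all 8 libraries. They made up 13.2% to 24.4% there, against 8.25% to 10.7% within 50 bp of the midpoints. The part of MNase preference in the +1 maximum was not tested.

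**Figure D2:**
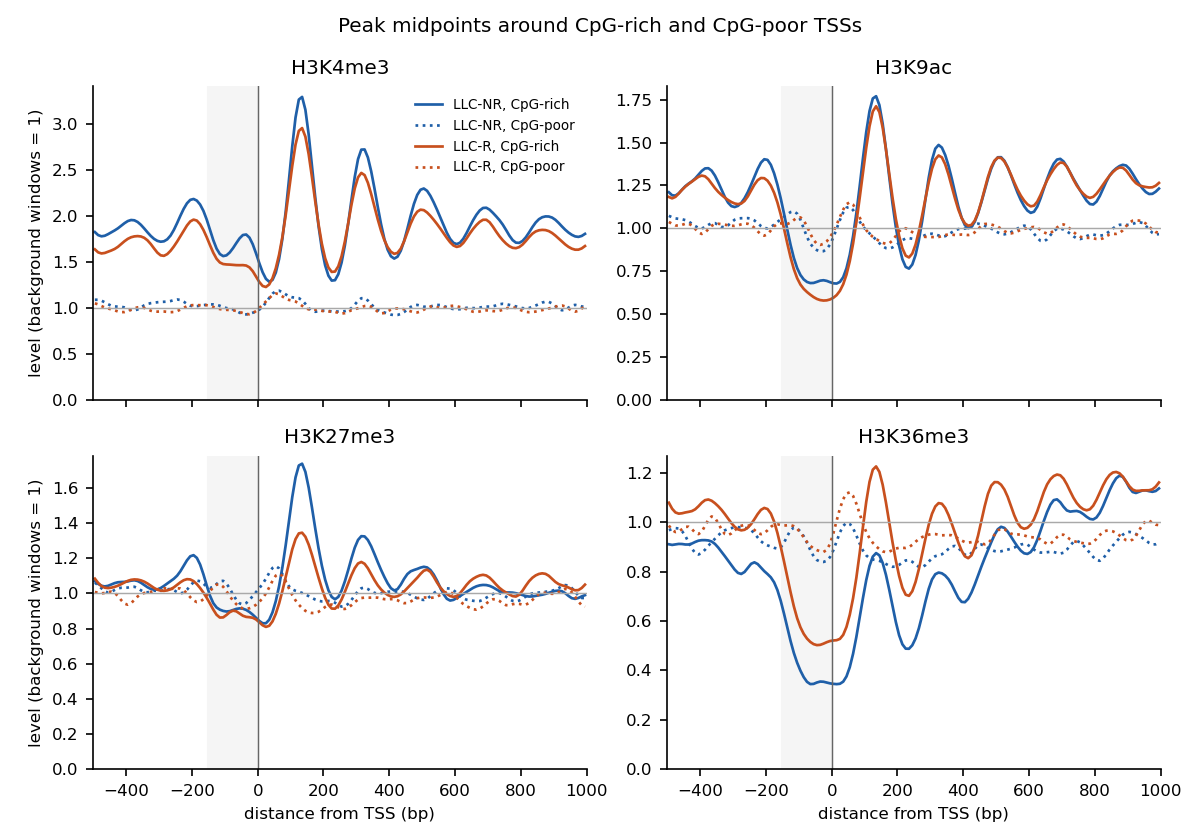
Smoothed level of midpoints against distance from the TSS at CpG-rich (solid) and CpG-poor (dotted) TSSs in LLC-NR (blue) and LLC-R (orange), 1 panel per mark with its own y axis; the grey band marks -150 to -1 bp and the grey line the background of 1. A regular series of maxima starts at +135 bp in all 8 libraries at CpG-rich TSSs, whereas CpG-poor TSSs show a low first maximum at +45 to +65 bp.

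Later nucleosomes kept the same phase in all marks and both lines. Maxima lay at +315 or +325 bp for +2, from +495 to +515 bp for +3, at +685 or +695 bp for +4 and from +865 to +915 bp for +5. The slope of the positions of +1 to +4 gave a spacing of 186 bp in both H3K4me3 libraries, 187 and 186 bp in H3K9ac (LLC-NR, then LLC-R), 184 and 185 bp in H3K27me3, and 184 and 182 bp in H3K36me3. Over the 19 autosomes the SD of the spacing was 6.63 to 12.5 bp. It describes profiles of single autosomes, not the error of the values over all members, which ranged from 182 to 187 bp. The lag of the highest autocorrelation was 190 bp in all 8 libraries, at a resolution of 10 bp. Moved along each other, the LLC-R and LLC-NR profiles of a mark matched best at a shift of 1 bp or less in either direction, and the profiles of different marks within a line at -1 to 3 bp.

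Heights along the series parted the marks. H3K4me3 declined from 3.30 at +1 over 2.73, 2.30 and 2.09 to 1.996 at +5 in LLC-NR, and from 2.96 to 1.85 in LLC-R. H3K27me3 declined from 1.74 to 1.02 in LLC-NR and from 1.35 to 1.11 in LLC-R. H3K9ac fell from +1 to +2 (1.77 to 1.49 in LLC-NR and 1.71 to 1.42 in LLC-R) and then lay between 1.35 and 1.41 up to +5. H3K36me3 in LLC-NR went the other way, from 0.875 at +1 and 0.796 at +2 to 1.19 at +5. In LLC-R, H3K36me3 was 1.23 at +1, 1.08 at +2 and 1.204 at +5.

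Upstream the order was weaker. The highest bin from -400 to -150 bp was at -195 to -215 bp in 5 libraries (both H3K4me3 and both H3K27me3 libraries and LLC-NR H3K9ac) and at -375 to -395 bp in the other 3. Its level was 2.19 in LLC-NR H3K4me3 and 1.96 in LLC-R H3K4me3, 1.40 and 1.31 for H3K9ac, 1.22 and 1.08 for H3K27me3, and 0.928 and 1.09 for H3K36me3. It was lower than +1 in 7 libraries and higher in LLC-NR H3K36me3, where +1 was 0.875.

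CpG-poor TSSs had neither the +1 position nor the series. Their first maximum was at +45 to +65 bp with a level of 0.998 to 1.19, and it stood 1.22 to 1.28 times above the next trough. What the same search then gave as +3 was spread from +435 to +545 bp, and as +5 from +705 to +1015 bp. The fitted spacing ranged from 170 bp to the search limit of 240 bp. Intermediate TSSs had a first maximum between +55 and +125 bp, with a level of 1.06 to 1.54.

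**Figure D3:**
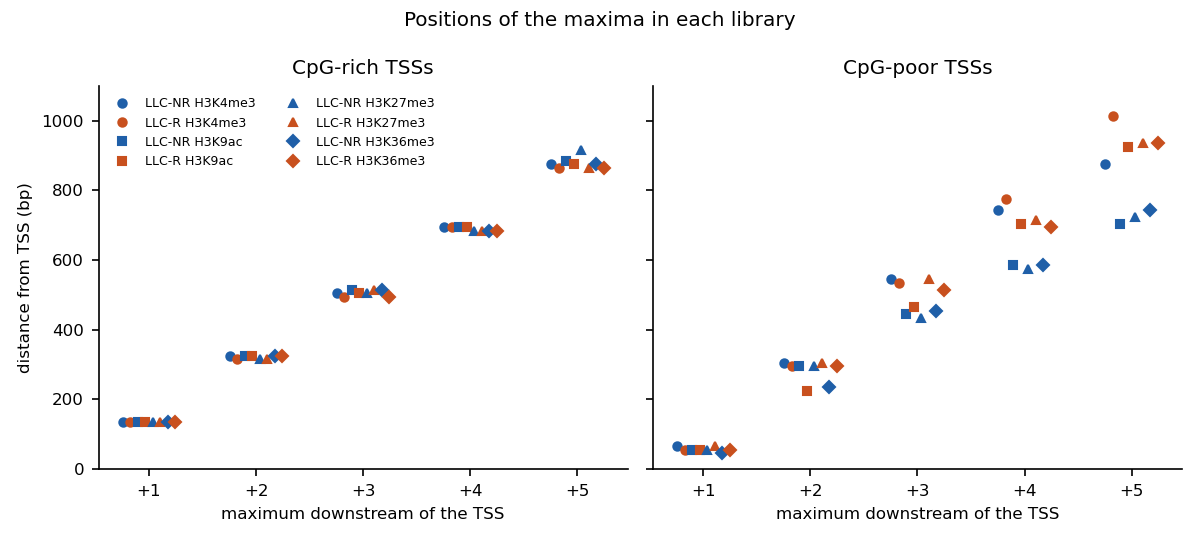
Positions of the maxima +1 to +5 (y axis, bp from the TSS) in each of the 8 libraries at CpG-rich and CpG-poor TSSs. At CpG-rich TSSs the 8 libraries lie from +495 to +515 bp at +3 and from +865 to +915 bp at +5, whereas at CpG-poor TSSs they lie from +435 to +545 bp and from +705 to +1015 bp.

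Between lines, H3K4me3 and H3K9ac were lower and H3K36me3 was higher in the depleted window of LLC-R, while H3K27me3 was nearly equal. The log2 ratio of LLC-R to LLC-NR was -0.19 (interval -0.24 to -0.14) for H3K4me3, -0.17 (-0.23 to -0.11) for H3K9ac and -0.03 (-0.09 to 0.02) for H3K27me3. For H3K36me3 it was 0.52 (0.44 to 0.61). H3K36me3 was higher in LLC-R on 19 of 19 autosomes, H3K4me3 on 0, H3K9ac on 1 and H3K27me3 on 5. Scaling each autosome on its own background windows gave 19, 0, 1 and 8. The LLC-R H3K36me3 library also held more peaks than that of LLC-NR (8747519 against 6432447). Its background was higher, 3.40 against 2.49 midpoints per kb, and the paper lists more uniquely mapped reads for it. The part of these in the ratio was not tested. For H3K27me3 the direction turned with the scaling: it was 0.02 when each library was scaled on its own region from -500 to +1000 bp, and 0.29 on unscaled numbers.

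The difference was not the same along the region. For H3K4me3 the log2 ratio of LLC-R to LLC-NR was -0.26 (-0.33 to -0.19) from -90 to -11 bp, -0.17 in the 100 bp upstream of the depleted window, -0.12 at +1 (+86 to +185 bp) and -0.10 over the whole region. For H3K9ac it was -0.17 in the depleted window, -0.05 (-0.10 to 0.001) at +1 and -0.03 over the region. For H3K27me3 it was -0.32 (-0.37 to -0.26) at +1, with 19 of 19 autosomes lower in LLC-R, and -0.06 over the region. The size at +1 rests on the scaling, since the libraries held 5354 (LLC-NR) and 5362 (LLC-R) midpoints there, an unscaled log2 ratio of 0.0022, with backgrounds of 2.84 and 3.55 midpoints per kb. Scaled on the region it was -0.26. For H3K36me3 the ratio was 0.52 in the depleted window, 0.47 (0.39 to 0.54) at +1, 0.44 at +2 and 0.26 over the region. The position of +1 and the spacing did not separate the lines, as given above.

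At the level of single TSSs, a depleted window held no midpoint or 1 midpoint in nearly every case, and no library had more than 2 members with 2 midpoints. It was empty at 45.4% of members in LLC-NR H3K4me3 and 51.9% in LLC-R H3K4me3, 62.6% and 69.3% for H3K9ac, 61.5% and 53.0% for H3K27me3, and 84.9% and 70.5% for H3K36me3. The window was empty in all 8 libraries at 1116 members (9.48%), against 935 CpG-poor TSSs (15.5%), and occupied in all 8 at 164 members (1.39%), against 134 CpG-poor TSSs (2.22%). Both extremes were thus a smaller share of members than of CpG-poor TSSs. The share over all TSSs was not counted for these extremes, so they are no result about members. Positions without unique reads count as empty in every library, and their part in these shares was not tested.

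A window that was empty in LLC-NR and occupied in LLC-R was called filled, and the reverse cleared. For H3K4me3, 1775 members were filled (15.1%, interval 14.4 to 15.7) against 16.1% of all TSSs, and 2548 were cleared (21.6%, 20.9 to 22.4) against 20%. For H3K9ac, 13.6% (13.0 to 14.3) were filled against 14.9%, and 20.4% (19.7 to 21.1) cleared against 20.6%. For H3K27me3, 23.0% (22.3 to 23.8) were filled against 22.7%, and 14.6% (13.9 to 15.2) cleared against 14.3%. For H3K36me3, 21.9% (21.2 to 22.7) were filled against 24.0%, and 7.45% (6.98 to 7.94) cleared against 9.71%. Each share of members was near that of all TSSs, and none is a result about CpG-rich TSSs.

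Filled in all 4 marks were 27 members (0.229%, interval 0.151 to 0.333) against 0.238% of all TSSs, and cleared in all 4 were 4 (0.0340%, 0.00926 to 0.0870) against 0.0794%. By alphabet, the filled ones begin with 1810026J23Rik, 4930433N12Rik, AI646023, Acvrl1, BC048355 and C85492. Among these Acvrl1 encodes ALK1, an endothelial receptor of the BMP9 and TGF-beta family. The cleared ones were Agphd1, Armc7, Specc1l and Tm2d3. Both shares are at or under those of all TSSs, and with 1 library per line and mark none of these windows is shown to differ between lines.

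Single peaks recurred at the same place more often near +1 than further into the gene for the active marks. The first midpoint from +20 to +220 bp had a median of +123 to +130 bp in the 8 libraries, and quartiles of +82 to +93 bp and +154 to +165 bp. A stretch of the same length 5 kb downstream gave medians of 114 to 117 bp. Of the 9391 members with such a midpoint in both H3K4me3 libraries, 64.8% (63.8 to 65.7) had them within 20 bp of each other, against 36.8% at 5 kb. For H3K9ac the share was 59.6% (58.5 to 60.7) of 7356 members against 47.6%. For H3K27me3 it was 38.5% (37.3 to 39.7) against 39.4%, and for H3K36me3 45.3% (43.4 to 47.1) against 45.7%, so that agreement between lines exceeded that at 5 kb in H3K4me3 and H3K9ac and was near it in the others.

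Across marks of a line, shares were again taken over members with a first midpoint in both libraries, not over all members. H3K4me3 and H3K9ac shared the position at 54.6% (53.6 to 55.7) of 8599 such members in LLC-NR, against 42.8% at 5 kb. In LLC-R they shared it at 46.5% (45.4 to 47.6) of 7616, against 37.0%. H3K4me3 and H3K27me3 did so at 48.9% against 37.3% in LLC-NR and at 45.4% against 36.9% in LLC-R. H3K27me3 and H3K36me3 were at or under the share at 5 kb, with 36.6% against 38.1% in LLC-NR and 36.6% against 42.9% in LLC-R. A midpoint was present in all 8 libraries at 1340 members, and in 309 of them (23.1%) the 8 lay within 40 bp, compared with 151 of 1279 stretches (11.8%) at 5 kb.

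The most fixed first nucleosomes among members whose depleted window was empty in all 8 libraries were at Taf13, Fibp, Hhip, Pla2r1, Rars2 and Arhgap1. Taf13 encodes a subunit of the general transcription factor TFIID. Its first midpoint was at +104 and +106 bp in H3K4me3 (LLC-NR, then LLC-R), +104 and +103 bp in H3K9ac, +101 and +103 bp in H3K27me3, and +107 and +104 bp in H3K36me3. The 8 values span 6 bp. Hhip, which encodes an inhibitor of Hedgehog signaling, had its first midpoint at +50 to +62 bp and Pla2r1, a phospholipase A2 receptor gene, at +45 to +57 bp. Rars2, a mitochondrial arginyl-tRNA synthetase gene, had values that span 12 bp from +134 bp. Rars2 and Arhgap1 have an oppositely oriented TSS within 1 kb upstream. These genes were ranked on this range, which is therefore a description.

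Ribosomal protein genes showed how far single genes follow the mean. Rps3 had its first midpoint at +209 to +217 bp in all 8 libraries, well downstream of the mean position, with 1 midpoint in its depleted window, in LLC-R H3K36me3. In Rps6 it lay at +163 to +203 bp in 6 libraries and at +108 bp in LLC-NR H3K9ac, and LLC-R H3K27me3 had none. Rpl3 had it at +162 to +184 bp in the 7 libraries that had one. Over 67 CpG-rich ribosomal protein genes the depleted window held 13 H3K27me3 midpoints in LLC-NR and 19 in LLC-R, levels of 0.455 (0.242 to 0.778) and 0.533 (0.321 to 0.832). Over all members these levels were 0.903 and 0.882.

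Developmental transcription factors differed from ribosomal protein genes in more than one measure. The +1 maximum was further upstream in 8 of 8 libraries, at +45 to +125 bp against +145 to +175 bp. These positions have no interval and rest on 61 and 67 TSSs. Over members of single autosomes, at least 307 each, +1 already lay between +105 and +175 bp. The 8 libraries also read the same genes and are not independent. At developmental factors the level over the region was lower in 6 of 8, with non-overlapping intervals in both H3K9ac libraries, and higher in both H3K27me3 libraries, where intervals did not overlap either. In 61 CpG-rich genes of this list the H3K27me3 level of the depleted window was 1.4997 (1.07 to 2.05; 39 midpoints) in LLC-NR and 1.35 (0.984 to 1.82; 44 midpoints) in LLC-R, and over -500 to +1000 bp it was 1.43 and 1.26, compared with 0.718 and 0.799 at ribosomal protein genes. H3K4me3 in the window was 1.92 and 1.62 at developmental genes and 1.57 and 0.965 at ribosomal protein genes, with overlapping intervals in both lines. Pax6 had a midpoint in the depleted window in 7 libraries, all but LLC-R H3K9ac. Sox9, a regulator of cartilage and sex determination, had the first midpoint at +131 to +138 bp in 7 libraries and none in LLC-NR H3K27me3, and 5 libraries had a midpoint in its depleted window. Nkx2-5 and Foxa2, a liver and endoderm factor, had empty depleted windows in all 8.

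Genes of VEGF signaling, which the therapy targets, varied among themselves. Vegfa was empty from -150 to -1 bp in all libraries but LLC-NR H3K36me3, and its first midpoint was at +70 to +86 bp in 7 libraries and at +179 bp in that one. Kdr had a midpoint in the depleted window in 7 libraries, all but LLC-NR H3K36me3. Vegfc and Vegfb, ligand genes, had 3 each, Flt1, the VEGF receptor 1 gene, had 3, Nrp1, a co-receptor gene, had 4 and Pgf, the placental growth factor gene, had 2. Among CpG-rich genes that the study checked by PCR, Smad3, a transducer of TGF-beta signals, had 5, Ptk2, the focal adhesion kinase gene, had 4 and Mapk9, the JNK2 gene, had 4. In Smad3 these were both H3K4me3 libraries, both H3K9ac libraries and LLC-NR H3K27me3. Over all members there were 15.1 (LLC-NR H3K36me3) to 54.6 (LLC-NR H3K4me3) midpoints per 100 depleted windows. Counts of libraries at single named genes are a description, and none is shown to differ from an average member. Nfkb1 and Mmp9 are CpG-poor under the rule and were not members.

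**Figure D4:**
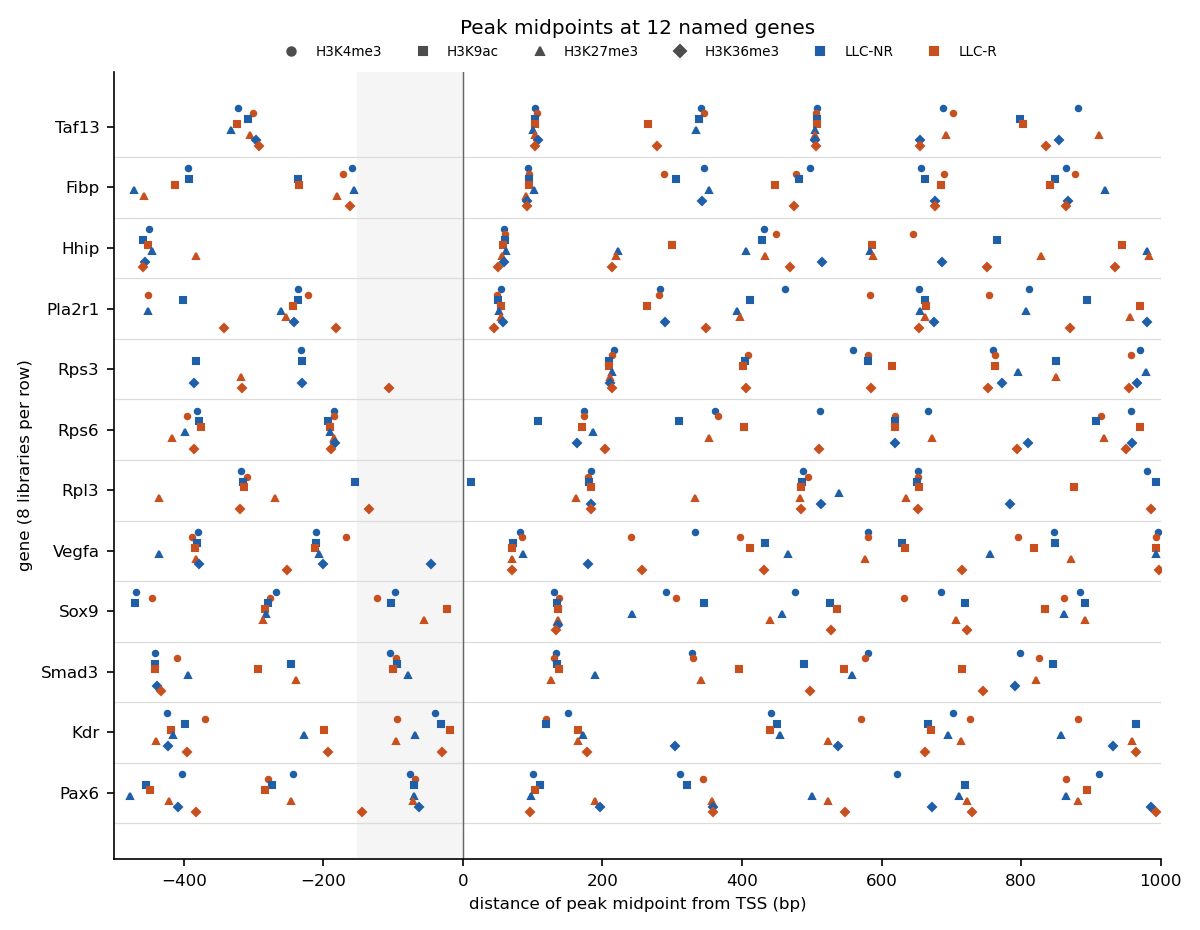
Midpoints of all peaks from -500 to +1000 bp (x axis, bp from the TSS) at 12 named genes, with 8 libraries per row (symbol: mark; blue: LLC-NR; orange: LLC-R; grey band: -150 to -1 bp). The 12 were picked after their values were seen, to show fixed first nucleosomes (Taf13, within 6 bp), empty depleted windows (Rps6) and occupied ones (Kdr and Pax6, 7 of 8 libraries).

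Housekeeping genes other than ribosomal ones were mixed. Actb, which encodes beta-actin, had its first midpoint at +128 to +151 bp in 6 libraries and at +47 bp in LLC-R H3K36me3, and its depleted window held a midpoint in both H3K4me3 libraries only. Eef2, a translation elongation factor gene, had a midpoint in the depleted window in 6 libraries, all but those of H3K36me3. Tbp and Ppia each had 1. Of 25 CpG-rich housekeeping genes, 4 had a depleted window that was empty in all 8 libraries, as had 8 of 67 ribosomal protein genes, 3 of 61 developmental genes and 0 of 19 VEGF and angiogenesis genes, which allows a share of up to 15.8% there. Over all members this share was 9.48%. The marker lists of host cells hold few members: 0 of 20 leukocyte, 5 of 15 endothelial and 4 of 15 fibroblast genes.

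The strength of the pattern was compared by sequence and gene structure, in splits chosen with the profiles in view. Members with the ETS core had a lower depleted window than those without it in 8 of 8 libraries, with non-overlapping intervals in 6, and a higher +1 window in 8 of 8, with non-overlapping intervals in 7. In LLC-NR H3K4me3 the +1 maximum was 4.05 with the core and 3.21 without it, and it stood 4.02 and 2.41 times above the next trough. This ratio was higher with the core by factors of 1.34 to 1.67 over the 8 libraries. ETS factors bind active housekeeping promoters in many tissues. Leaving out members with an oppositely oriented TSS within 1 kb upstream, 1013 against 9260 members gave factors of 1.32 to 1.62.

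The other motifs differed in how they went with these windows. The NRF1 core GCGCATG (either strand) was present in 586 members, 4.98%, against 3.02% of all TSSs. It went with a lower depleted window in 7 of 8 libraries, with non-overlapping intervals in 4. The +1 window was higher with it in 8 of 8 libraries, also with non-overlapping intervals in 4. The CCAAT box (CCAAT on either strand; 27.3% of members and 25.6% of all TSSs), the site of NF-Y, went with a lower depleted window in 8 of 8, all with non-overlapping intervals, and a higher +1 window in 8 of 8. With the GC box the depleted window was higher for H3K4me3 and H3K27me3 and lower for H3K9ac and H3K36me3 in both lines, each with non-overlapping intervals. In LLC-NR it was 1.75 against 1.59 for H3K4me3 and 0.321 against 0.519 for H3K36me3. The cyclic AMP response element TGACGTCA (304 members, 2.58%, against 1.65% of all TSSs) had non-overlapping intervals in 1 library for either window. The TATA box TATAAA (either strand; 337 members, 2.86%, against 7.94% of all TSSs) had them in 1 library for the depleted window and in none for +1. The depleted window was higher with it in 6 of 8 libraries. This split takes the letters anywhere in the depleted window. Only 99 members (0.841%) had them from -40 to -20 bp on the strand of the gene.

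First exons under 150 bp went with the sharper array. Compared with members whose first exon exceeds 300 bp (3422 against 4254 members), the +1 window was higher in 8 of 8 libraries with non-overlapping intervals, by factors of 1.17 to 1.61. In LLC-NR H3K4me3 +1 was 3.73 against 2.89 and stood 3.496 against 2.08 times above the next trough. The +1 maximum was at +135 bp with short first exons in all 8 libraries and at +115 or +125 bp with long ones. Members with an oppositely oriented protein-coding TSS within 1 kb upstream (1501) had a lower depleted window in 8 of 8 libraries, with non-overlapping intervals in 5, and the same +135 bp.

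**Figure D5:**
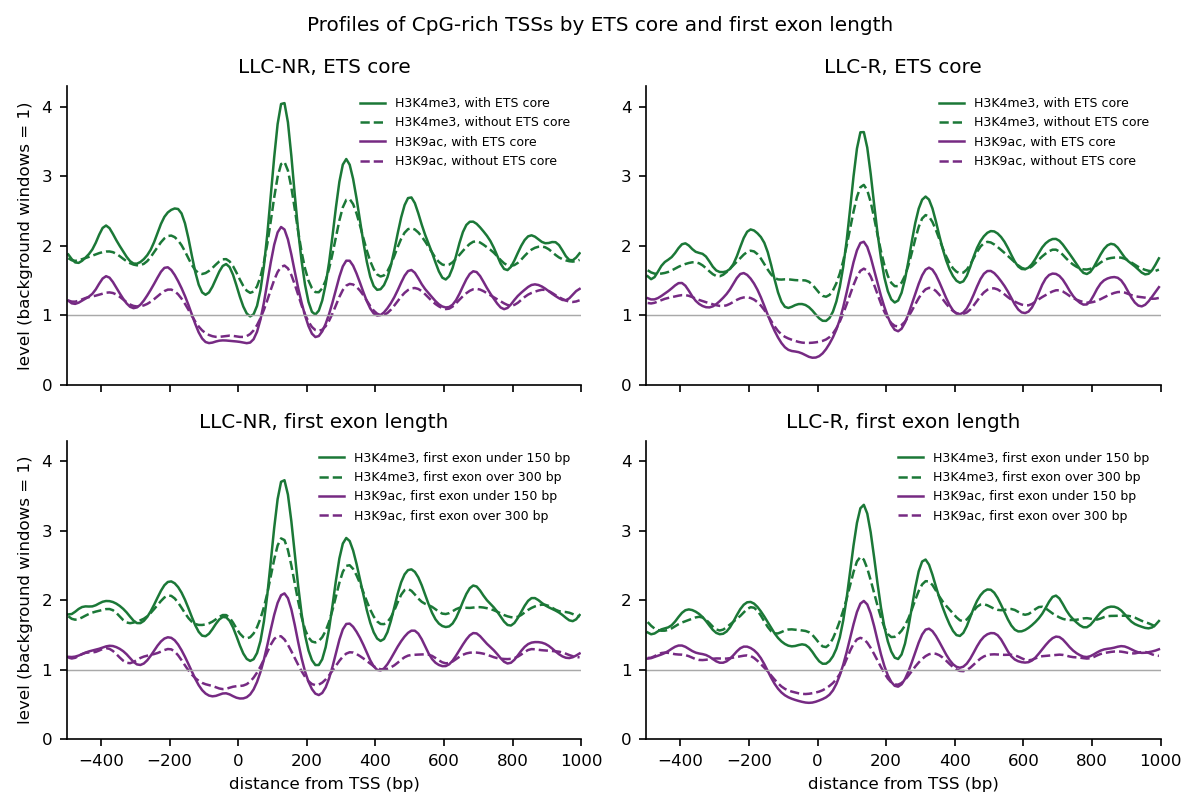
Smoothed level against distance from the TSS for H3K4me3 (green) and H3K9ac (purple) in LLC-NR and LLC-R at CpG-rich TSSs with (solid) and without (dashed) an ETS core from -150 to -1 bp (upper panels) and with first exons under 150 bp (solid) or over 300 bp (dashed; lower panels). In LLC-NR H3K4me3 +1 reaches 4.05 with the ETS core and 3.21 without, and 3.73 with short and 2.89 with long first exons.

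The marks differed in how they went with CpG O/E. Members were divided into 3 equal groups by CpG O/E, the lowest up to 0.851 and the highest above 0.983. Other sequence features were not held equal between the groups, and their part was not tested. From the lowest to the highest group, the depleted window of H3K36me3 went from 0.535 to 0.289 in LLC-NR and from 0.7497 to 0.437 in LLC-R. H3K9ac went from 0.861 to 0.662 and from 0.770 to 0.598, and H3K27me3 from 0.992 to 0.837 and from 0.937 to 0.854. H3K4me3 in LLC-NR went the other way, from 1.59 to 1.76, with intervals of 1.52 to 1.66 and 1.69 to 1.84, and in LLC-R it was 1.49 and 1.51. The highest group had its +1 maximum at +135 or +145 bp, and the lowest at +125 or +135 bp.

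A midpoint in the depleted window recurred across libraries. Members with one in LLC-NR H3K4me3 (6431) were compared with those without one (5343) in the 7 libraries that did not make this split. The level of the window was higher in the former in all 7, with non-overlapping intervals, by factors of 1.39 to 1.82. For example it was 1.86 against 1.02 in LLC-R H3K4me3, 1.09 against 0.683 in LLC-NR H3K27me3 and 0.463 against 0.333 in LLC-NR H3K36me3. Over the region from -500 to +1000 bp the factors were 1.02 to 1.07. The +1 window was also higher in 6 of the 7 libraries, with non-overlapping intervals in 5 and factors of 0.987 to 1.15, and +1 stood higher above the next trough in 7 of 7, by factors of 1.08 to 1.33. Windows without unique reads are empty in every library and so fall in the group without a midpoint. Their part in these factors was not tested. For 5899 members on the plus and 5875 on the minus strand, intervals of the depleted window and of +1 overlapped in all 8 libraries, and +1 was at +135 bp in all.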

How the data were processed

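The authors aligned the reads of each library to mm9 with Bowtie 0.12.7, allowing up to 2 mismatches, kept uniquely mapped reads and called peaks of nucleosome width with GeneTrack, whose settings are not given in the sources used here. The deposited peaks are positions in base pairs (start and end), without height, score or strand, and no input library was used here. From these, midpoints were counted around TSSs in 10-bp bins and smoothed (Gaussian, SD 20 bp). The +1 maximum was sought from +20 to +250 bp and each later one 120 to 240 bp after the one before. TSSs came from GENCODE vM1 and sequence from NCBIM37. The peak lists show depth only as the number of peaks per library. The paper's supplement lists uniquely mapped reads, which were not used here. By these, LLC-R was deeper than LLC-NR for H3K27me3 and H3K36me3, and shallower for H3K4me3 and H3K9ac. With 1 library per line and mark no test was made, no p-value is given, and lines were compared by ratios with exact 95% intervals for counting error and by counts over 19 autosomes.

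The members and gene lists were chosen with earlier results of these data known. Named genes are those of fixed lists (genes of the PCR checks, VEGF signaling, housekeeping, ribosomal proteins, developmental factors), the 6 members with the smallest range of the first midpoint and no midpoint in the depleted window, and up to 6 members by alphabet that were filled or cleared in all 4 marks. Scripts were tested on simulated midpoints. Alternatives covered windows, scaling, smoothing, TSS choice, CpG thresholds and odd- or even-numbered autosomes. Scripts ran in Python 3.11.15, with Matplotlib 3.10.9 for plots and SciPy 1.17.1, pandas 2.3.3 and NumPy 2.4.6 for counts. A result for 1 gene of the named lists is not reported here.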

Additional observations from a re-analysis of the deposited data

Results flagged for a closer look

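In the depleted window of CpG-rich TSSs, the log2 ratio of LLC-R to LLC-NR was below 0 for 3 marks and above 0 for H3K36me3. It was 0.52 for H3K36me3, against -0.19 for H3K4me3, -0.17 for H3K9ac and -0.034 for H3K27me3. The interval for H3K27me3, -0.091 to 0.023, holds 0. Its sign turned when scaled on the region (0.022) and without scaling (0.29). Each value rests on 1 library per line, and the difference between marks was not tested.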

How the results depend on the processing

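The +1 position stayed within the spread over autosomes under other smoothing, at the TSS farthest upstream, without divergent TSSs and with bins of 1 bp (chosen after seeing the data). The spacing did so under other smoothing, with maxima +1 to +3 and by autocorrelation, except in LLC-R H3K36me3 by autocorrelation (190 bp). The level of the depleted window moved with the scaling. Scaled on the region itself it was 0.879 and 0.828 for H3K4me3 (LLC-NR, then LLC-R), 0.640 and 0.580 for H3K9ac, 0.840 and 0.853 for H3K27me3 and 0.498 and 0.596 for H3K36me3, so that H3K4me3 is under 1 and the order of the marks turns in LLC-R. Scaled on background windows with a peak it was 1.61 and 1.41, 0.720 and 0.640, 0.861 and 0.840, and 0.385 and 0.553 for the 4 marks in this order.

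From -100 to -1 bp the level was 0.686 and 0.594 for H3K9ac and 0.351 and 0.513 for H3K36me3. From -200 to +50 bp it was 0.855 and 0.774 for H3K9ac, 0.942 for LLC-NR H3K27me3, and 0.465 and 0.654 for H3K36me3. With O/E 0.75 and G+C 60% it was 1.73 for LLC-NR H3K4me3, 0.719 and 0.635 for H3K9ac, and 0.359 and 0.522 for H3K36me3. Without divergent TSSs it was 0.945 and 0.911 for H3K27me3. Searching the CpG-rich interval from -0.5 to +2 kb gave a ratio of CpG-rich to CpG-poor TSSs of 0.484 in LLC-NR H3K36me3.

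The log2 ratio of LLC-R to LLC-NR scaled on the region was -0.086 for H3K4me3, 0.022 for H3K27me3 and 0.26 for H3K36me3. Without scaling (chosen after seeing the data) it was -0.29 for H3K9ac, 0.29 for H3K27me3 and 0.97 for H3K36me3, so the sign for H3K27me3 rests on the scaling. The causes were not tested.

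The share of first midpoints at the same place in both lines, minus that at 5 kb, was 25.7 and 24.4 percentage points within 10 and 40 bp for H3K4me3 and 10.7 and 11.9 for H3K9ac. It was -1.87 and 3.55 for H3K27me3 and -0.863 and 4.301 for H3K36me3, where the sign turned. Between marks it turned at -2.49 (H3K9ac and H3K27me3, 10 bp) and 4.34 (H3K27me3 and H3K36me3, 40 bp) in LLC-NR, and at -0.362 (H3K4me3 and H3K36me3, 10 bp) and 2.57 (H3K9ac and H3K27me3, 40 bp) in LLC-R. No paired analysis was possible because each line and mark has 1 library and no result comes from a test. Peaks without height, the absence of replicates and levels that saturate at about 1 midpoint per window limit every comparison.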
